A study of Mus musculus with 10 samples.

Results

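Cathepsins and legumain are the lysosomal proteases of antigen-presenting cells, and 10 of their genes were followed here in dendritic cells with and without Ptbp1: Ctsa, Ctsb, Ctsc, Ctsd, Ctse, Ctsh, Ctsl, Ctss, Ctsz and Lgmn. They were chosen by symbol. All 10 were among the 19178 genes of the count table, and all 10 were among the 18248 genes that passed the filter on low counts. The study sequenced poly(A) RNA of mouse dendritic cells in 10 libraries, 5 labelled as Ptbp1-deficient and 5 as wild type (WT), with an age of 8 to 10 weeks given for both groups. The design text sets the Ptbp1-deficient mice against WT to study molecular changes, and the labels give neither the allele, the cell type in which the deletion acts, the organ the cells came from, nor the sex. Nor do they say whether the libraries come from different mice, so the p-values take account of the spread among the libraries alone, which may be technical. The tests treat the 5 libraries of a group as independent. By a chi-square per gene, deficient replicates 1 and 2 differed by 5.31, and by 33.3 to 54.2 from deficient replicates 3 to 5. WT replicates 2 to 4 differed by 8.51 to 10.2 among themselves, and by 37.8 to 101 from WT replicates 1 and 5.

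Dendritic cells take up protein, cut it in endosomes and lysosomes and show the peptides on MHC class II. Cysteine cathepsins of the papain family, aspartic cathepsins and the asparagine-specific legumain do the cutting, and they also break down the invariant chain that occupies the class II groove until peptide is loaded. All are made as inactive precursors that mature in acid compartments, and cystatins hold the cysteine enzymes in check. Dendritic cells are known for slower lysosomal proteolysis than macrophages, which carry more of several of these enzymes.

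The stretches before the start sites of Ctsz, Ctsc and Ctss are shown because the first gene rose, the second fell and the third, the major invariant-chain protease of dendritic cells, did not pass the test. Each is the last 100 bases before the RefSeq start on GRCm38.p6, on the strand of the gene, with capitals for a match to GAAA, any 2 bases, GAAA, the type of site that interferon regulatory factors recognise (ISRE). They lie at chr2:174439040-174439139 on the minus strand (Ctsz), chr7:88277985-88278084 on the plus strand (Ctsc) and chr3:95526686-95526785 on the plus strand (Ctss).
Ctsz: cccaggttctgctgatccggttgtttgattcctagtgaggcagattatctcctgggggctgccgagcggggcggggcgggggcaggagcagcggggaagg
Ctsc: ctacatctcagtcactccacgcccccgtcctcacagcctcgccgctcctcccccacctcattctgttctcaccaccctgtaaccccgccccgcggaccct
Ctss: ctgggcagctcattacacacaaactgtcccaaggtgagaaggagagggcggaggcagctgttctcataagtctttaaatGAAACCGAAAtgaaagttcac
The RefSeq promoter table, with 250 bases before and 50 after each start, matched 7 of the 10 genes with 9 windows, and had no entry for Ctsb, Ctse and Ctsh. The ISRE type of motif was found on either strand in the Ctss window and in 3.44% of all 32851 windows. GAGGAAGT, a PU.1 type of site, was found in the Ctss and Ctsc windows and in 3.20% of all windows. TATAAA was found in a Ctss and a Lgmn window and in 13.6% of all windows. TCACGTG, the core of the site that TFEB, the lysosomal transcription factor, recognises, was found in windows of Ctsa, Ctsd and Lgmn and in 3.77% of all windows. The windows of Ctsa and Ctsd held 2 such sites each. The site nearest before the start is shown for each gene with 10 bases on each side and the motif in capitals (8 letters where it matches on both strands), because Lgmn fell, whereas Ctsa and Ctsd did not pass the test.
Ctsa, chr2:164833750-164833777, plus strand: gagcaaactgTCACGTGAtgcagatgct
Ctsd, chr7:142387909-142387936, minus strand: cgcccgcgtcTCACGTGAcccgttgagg
Lgmn, chr12:102439126-102439152, minus strand: ggaatgtctgTCACGTGgtccatttta
The motif starts 13 bases before the start in Ctsa, 99 before it in Ctsd and 50 before it in Lgmn. All 100 bases before these starts of Ctsa and Ctsd lie in annotated exons, so both sites shown are exonic. For this start of Lgmn the overlap with exons is 0 bases. Ctsa and Lgmn have 2 windows each, at different starts. In both genes only the window at the start further inside the gene held the motif (start at 164833773 for Ctsa and 102439092 for Lgmn). These starts are RefSeq's and differ from the ends of the longest gene models given below. A match in these windows is a description of the letters only.

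Counts assigned to genes ranged from 50516163 to 92697815 per library, and the members had between 275 (Ctsl, Ptbp1-deficient replicate 2) and 94285 counts (Ctsb, WT replicate 5) per library. Ptbp1 itself, the check of the labels, lay at 73.2 to 75.7 CPM (the usual depth-scaled count unit, with TMM factors) in the deficient libraries and at 259 to 312 CPM in WT. Of 8 dendritic cell markers all were measured, and their summed level was 25870 to 27780 CPM in the deficient and 22550 to 27550 CPM in the WT libraries, with 22550 and 22660 CPM in WT replicates 1 and 5. Cd74 and H2-Ab1 made up most of that sum; Itgax and Zbtb46 rose, Dpp4 and Bcl11a fell, and the other 4 markers did not pass. Of 10 markers of cDC1, the conventional dendritic cells that cross-present antigen, 9 rose (6750 to 8241 CPM in sum against 3673 to 4933 CPM in WT). Of 10 markers of cDC2, the other conventional subset, 8 fell (1379 to 1699 against 1780 to 2066 CPM). Among all genes tested 21.9% rose and 23.1% fell. Macrophage markers moved with genotype and with single libraries: 17 of 18 were measured, 11 fell and none rose, and their summed level was 415 to 1196 CPM in the deficient and 1415 to 4320 CPM in the WT libraries. The lowest count of any of them in a library was 11, for Marco, and Vsig4 was not in the table. WT replicates 5 (4320 CPM) and 1 (2883 CPM) stood far above WT replicates 2 to 4 (1415 to 1479 CPM). Deficient replicates 1 and 2 (432 and 415 CPM) stood below deficient replicates 3 to 5 (1021 to 1196 CPM). In bulk RNA, fewer cells of a type and less RNA per cell cannot be told apart.

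The deposited FPKM values, which correct for gene length, allowed the members to be ranked. Ctss led in WT with 489 ± 7.37 FPKM (SD, n = 5), and Ctsz (373 ± 16.4 FPKM) and Ctsh (266 ± 17.6 FPKM) came next. Ctsb (203 ± 73.2), Ctsa (116 ± 10.4), Ctsc (96.8 ± 21.0), Ctsd (91.6 ± 36.3) and Lgmn (77.4 ± 19.9 FPKM) formed the middle. Ctsl (8.61 ± 5.68 FPKM) and Ctse (1.93 ± 0.706 FPKM) were lowest. The ranges over WT libraries overlapped between Ctsh and Ctsb, between Ctsa and Ctsc, between Ctsc and Ctsd, and between Ctsd and Lgmn, so those neighbours were not separated. The order of the means was the same in the deficient libraries, but there the ranges of Ctss (453 ± 14.99 FPKM) and Ctsz (446 ± 16.01 FPKM) overlapped, whereas in WT Ctss lay above Ctsz in every library. A second length-corrected level, CPM divided by exonic length in kb, gave another order below the top 2: in WT Ctsb ranked above Ctsh and Ctsc moved from rank 6 to 8, and in the deficient libraries Ctse (2.23) lay above Ctsl (1.17). The order of those genes thus depends on the length used. Ctss, Ctsz and Ctsh together made up 71.5% to 76.7% of the summed FPKM of the 10 genes in the deficient and 57.2% to 70.1% in the WT libraries.

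**Figure D1:**
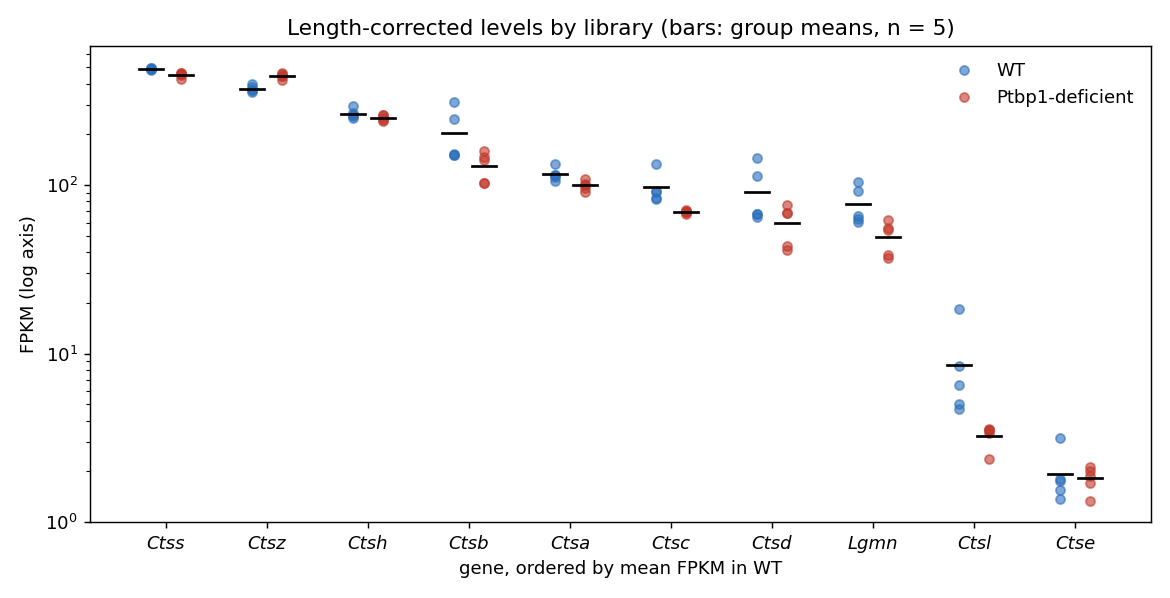
FPKM of each gene in each library on a log axis, ordered by the WT mean, with WT points at left, Ptbp1-deficient points at right and bars for group means (n = 5). Ctss, Ctsz and Ctsh were the highest in both groups, and Ctsl and Ctse lay below 20 FPKM in every library.

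Among the 10 genes Ctsz, the carboxypeptidase cathepsin Z, rose in the Ptbp1-deficient libraries, and Ctsl, Lgmn and Ctsc fell. The other 6 genes, Ctsa, Ctsb, Ctsd, Ctse, Ctsh and Ctss, did not pass the test. The 4 changed members are 40.0% of the 10, beside 45.0% of all genes tested. In the upward direction 21.9% of all genes passed and in the downward direction 23.1%. A gene counts as changed at an adjusted p under 0.05 in the quasi-likelihood test of edgeR, with p-values adjusted by Benjamini-Hochberg across the 18248 genes. The median log2 fold change of the 10 genes was -0.29, beside -0.03 over all genes tested. The CPM of the 2 groups did not overlap for 3 members, Ctsz, Ctsc and Ctsl, and 33.4% of all genes had no such overlap (17.2% higher, 16.2% lower). Upper-quartile scaling called 5 members lower (26.6% of all genes were lower there), and limma on the deposited FPKM values called 6 lower (27.2% of all genes listed there, 27.3% with a pseudocount of 0.1 and 27.6% with a mean of at least 2 FPKM). With the replicate number as a block the calls were again 1 upward and 3 downward (20.6% and 20.7% of all genes). No run of 100 bases was shared between the transcripts of different members. Other annotated genes also held 710 of the 2028 such runs of Ctsd, and the shares were 25.4% for Ctsl, 14.5% for Ctsb, 11.6% for Ctsa and 0 for the other 6, so the levels of those 4 genes are the less certain ones.

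**Figure D2:**
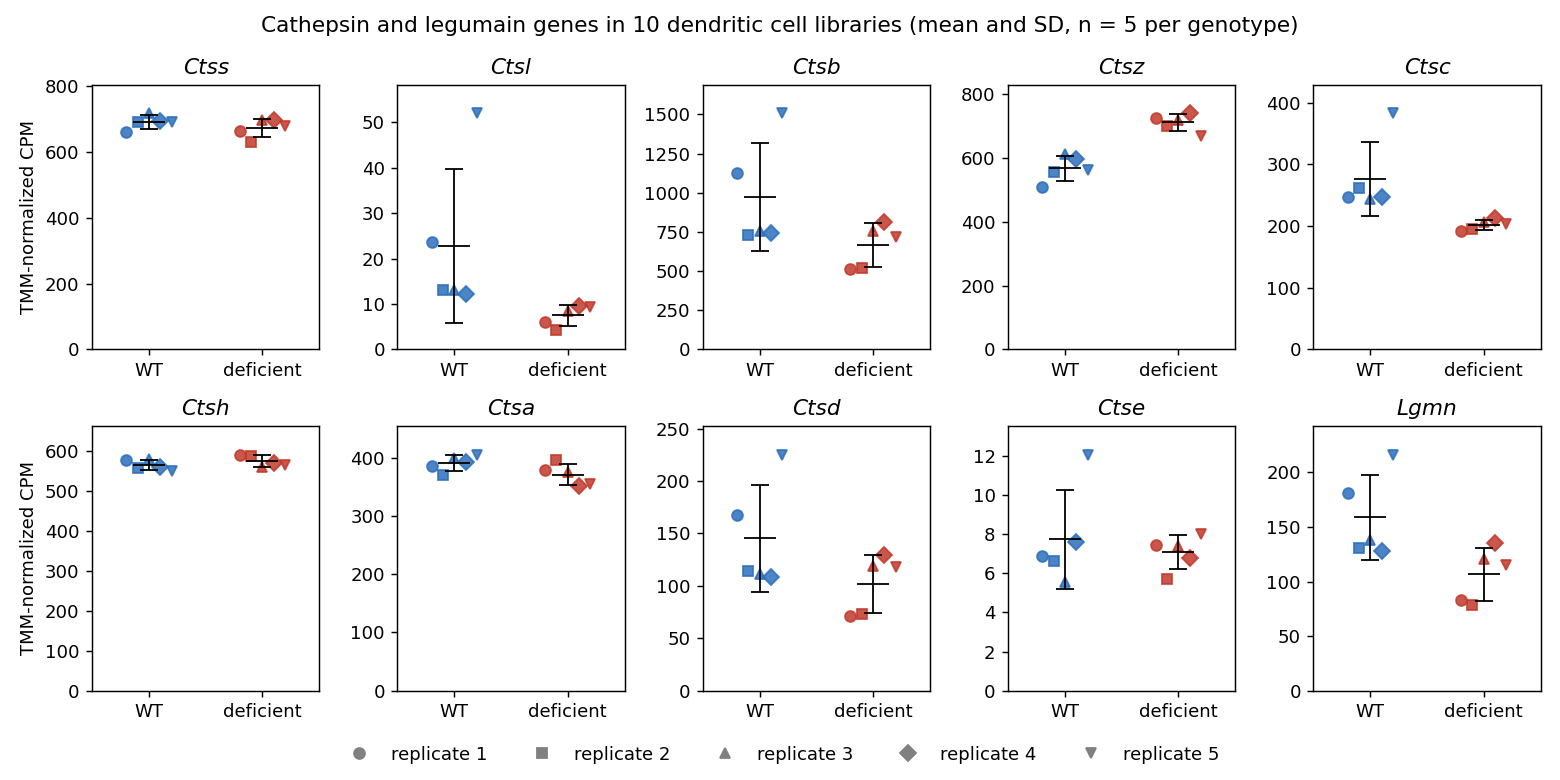
TMM-normalized CPM of each gene in each library, with a symbol per replicate number (the labels state no pairing across genotypes) and the mean and SD over 5 libraries per genotype. Ctsz was higher and Ctsc and Ctsl lower in every deficient library, while WT replicates 1 and 5 stood above the other WT libraries for Ctsb, Ctsd, Ctsl and Lgmn.

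Ctss (ENSMUSG00000038642, chromosome 3, 95526786 to 95556403, plus strand of GRCm38), which encodes the protease that makes the last cuts in the invariant chain, was among the steadiest members. Its level in the deficient libraries 1 to 5 was 662, 629.9, 697, 696 and 679 CPM. In the WT libraries 1 to 5 it was 659, 691, 717, 693 and 692 CPM. The groups overlapped, with 1 deficient library below every WT library. The log2 fold change was -0.04 (95% interval -0.13 to 0.06; adjusted p = 0.51 with edgeR), which as a fold is an interval of 0.912 to 1.04. In the FPKM values Ctss was lower by 0.11 on the log2(FPKM + 1) scale, and there it passed (adjusted p = 0.032, limma).

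Ctsl (ENSMUSG00000021477, chromosome 13, 64359337 to 64370890, minus strand), which encodes cathepsin L, an endopeptidase prominent in macrophages and in thymic epithelium, had the steepest fall. The deficient libraries 1 to 5 held 6.07, 4.30, 8.51, 9.63 and 9.40 CPM. WT libraries 1 to 5 held 23.6, 13.04, 13.01, 12.2 and 52.0 CPM. Every deficient library was below every WT library, and WT replicates 5 and 1 were far above the other WT libraries. Means were 7.58 ± 2.31 and 22.8 ± 17.02 CPM (adjusted p = 0.0078 with edgeR; log2 fold change -1.58, SE 0.41). Without WT replicate 5 alone it was -1.03 (adjusted p = 0.0052). Without WT replicates 1 and 5 the log2 fold change was -0.75 (adjusted p = 0.015), and without deficient replicates 1 and 2 it was -1.32 (adjusted p = 0.055, where 1 member was called lower and 20.6% of all genes were). With both pairs left out, deficient replicates 3 to 5 stood at 8.51 to 9.63 CPM against 12.2 to 13.04 CPM in WT replicates 2 to 4 (log2 fold change -0.47, adjusted p = 0.00045). Adding a macrophage score as a covariate gave -0.27 (adjusted p = 0.51). Exons of the annotated antisense gene Gm47123 cover 1742 bases of Ctsl exons and the pseudogene Gm49230 395, and, with no source used here naming the strand setting of the counting, reads there may have been counted for either gene or set aside as ambiguous (1.78% to 1.94% of each library's total). Neither Gm47123 nor Gm49230 was among the genes tested.

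Ctsb (ENSMUSG00000021939, chromosome 14, 63122462 to 63145923, plus strand), which encodes cathepsin B, an endopeptidase that also trims dipeptides from the C-terminus, did not pass. Its level was 515, 519, 758, 815 and 718 CPM in the deficient libraries 1 to 5. In WT libraries 1 to 5 it was 1128, 730.2, 756, 742 and 1507 CPM. Deficient replicates 3 to 5 (718 to 815 CPM) spanned WT replicates 2 to 4 (730.2 to 756 CPM), while deficient replicates 1 and 2 were lower and WT replicates 1 and 5 higher than all of these. The log2 fold change was -0.55 (95% interval -1.02 to -0.08, adjusted p = 0.057 with edgeR). It passed with limma on the FPKM values (log2 fold change -0.58 on the log2(FPKM + 1) scale, adjusted p = 0.046) and with upper-quartile scaling (adjusted p = 0.041). Without WT replicates 1 and 5 it was -0.16 (adjusted p = 0.39).

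Ctsz (ENSMUSG00000016256, chromosome 2, 174427493 to 174439039, minus strand), whose product removes single residues from the C-terminus, was the member that rose. The deficient libraries 1 to 5 held 727, 702, 719.9, 741 and 671 CPM. WT libraries 1 to 5 held 510.1, 556, 614, 597 and 564 CPM. All 5 deficient libraries were above all 5 WT libraries. The mean was 712 ± 26.9 CPM against 568 ± 40.1 CPM, 125.3% of WT (adjusted p = 0.00051 with edgeR; log2 fold change 0.33, SE 0.055; fold interval 1.15 to 1.36). It passed under all 25 alternatives run, with log2 fold changes of 0.26 to 0.35 and adjusted p-values up to 0.0092. The cDC1 and cDC2 marker sums also differed between the genotypes without overlap, and their part in the Ctsz result was not tested. Its start region, printed above, held none of the 4 motifs searched.

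Ctsc (ENSMUSG00000030560, chromosome 7, 88278085 to 88310888, plus strand), which encodes the dipeptidyl peptidase that activates granzymes and neutrophil serine proteases, fell. Its level was 192, 196, 207, 212 and 203 CPM in the deficient libraries 1 to 5. In WT libraries 1 to 5 it was 247, 262, 244, 247 and 383 CPM. No deficient library reached the lowest WT library, and WT replicate 5 stood alone at the top. Means were 202 ± 8.22 and 277 ± 59.8 CPM (adjusted p = 0.0065 with edgeR; log2 fold change -0.45, SE 0.11). Without WT replicates 1 and 5 the log2 fold change was -0.32 (adjusted p = 0.00019). Adding the macrophage score gave -0.22 (adjusted p = 0.22), the only one of the 25 alternatives in which Ctsc did not pass.

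Ctsh (ENSMUSG00000032359, chromosome 9, 90054152 to 90076089, plus strand), which encodes an aminopeptidase, lay between 562 and 592 CPM in the deficient libraries (median 571) and between 552 and 581 CPM in WT (median 560.3). The groups overlapped, with 2 deficient libraries above all WT libraries. The log2 fold change was 0.03 (95% interval -0.06 to 0.11, adjusted p = 0.61 with edgeR), and its sign turned under upper-quartile scaling (-0.02) and in the FPKM values (-0.08), where it did not pass either.

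Ctsa (ENSMUSG00000017760, chromosome 2, 164832873 to 164841032, plus strand) encodes a serine carboxypeptidase that also protects beta-galactosidase and neuraminidase 1 in the lysosome. It lay between 352 and 396 CPM in the deficient libraries (median 375) and between 369.8 and 406 CPM in WT (median 392.3). The groups overlapped, with 2 deficient libraries below all WT libraries. The log2 fold change was -0.07 (95% interval -0.17 to 0.03, adjusted p = 0.21 with edgeR). In the FPKM values it was -0.22 (adjusted p = 0.020, limma), and with upper-quartile scaling the adjusted p was 0.045. Of its partners, Neu1 fell from 47.2 ± 5.50 to 34.5 ± 1.10 CPM (adjusted p = 3.0e-04) and Glb1 was at 1.04-fold of WT (adjusted p = 0.56). Exons of Ctsa overlap those of Pltp by 495 bases and those of Neurl2 by 324 bases on the other strand. Pltp rose (log2 fold change 0.90, adjusted p = 2.4e-04 with edgeR) and Neurl2 did not pass (adjusted p = 0.11).

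Ctsd (ENSMUSG00000007891, chromosome 7, 142375911 to 142388038, minus strand), which encodes the main aspartic protease of lysosomes, did not pass. The deficient libraries 1 to 5 held 70.9, 73.4, 119, 129 and 118 CPM. WT libraries 1 to 5 held 168, 114, 111, 108 and 225 CPM. Deficient replicates 3 to 5 were all above WT replicates 2 to 4, while WT replicates 1 and 5 were above every other library. The log2 fold change was -0.51 (95% interval -1.02 to 0.01, adjusted p = 0.10 with edgeR). With WT replicates 1 and 5 and deficient replicates 1 and 2 left out it was 0.13 (adjusted p = 0.035), and adding the macrophage score gave 0.26 (adjusted p = 0.043), both in the opposite direction. Without WT replicates 1 and 5 alone it was -0.12 (adjusted p = 0.62). The annotated gene Gm49369 shares 808 exonic bases with Ctsd on the same strand and was not among the genes tested.

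Ctse (ENSMUSG00000004552, chromosome 1, 131638306 to 131675505, plus strand), the other aspartic member and an endosomal enzyme, was low. It lay between 5.73 and 8.00 CPM in the deficient libraries (median 7.42) and between 5.55 and 12.1 CPM in WT (median 6.90). The groups overlapped throughout, and the highest level was that of WT replicate 5. The log2 fold change was -0.13 (95% interval -0.54 to 0.28, adjusted p = 0.60 with edgeR), and it was 0.09 without WT replicate 5.

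Lgmn (ENSMUSG00000021190, chromosome 12, 102394084 to 102439813, minus strand), which encodes legumain, the protease that cuts after asparagine and starts invariant chain breakdown in some cells, fell in the comparison of all libraries. Its level was 83.3, 78.4, 120.4, 135 and 115 CPM in the deficient libraries 1 to 5. In WT libraries 1 to 5 it was 181, 130.4, 138, 128 and 216 CPM. Of the 5 deficient libraries 4 were below all WT libraries, and replicate 4 lay among WT replicates 2 to 4. Means were 107 ± 24.6 and 159 ± 38.8 CPM (adjusted p = 0.022 with edgeR; log2 fold change -0.58, SE 0.18). It did not pass without WT replicate 1 (adjusted p = 0.053), without deficient replicate 1 (adjusted p = 0.054) or without deficient replicate 2 (adjusted p = 0.051). Without WT replicates 1 and 5 the log2 fold change was -0.31 (adjusted p = 0.12), and with deficient replicates 1 and 2 also left out it was -0.10 (adjusted p = 0.20).

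**Figure D3:**
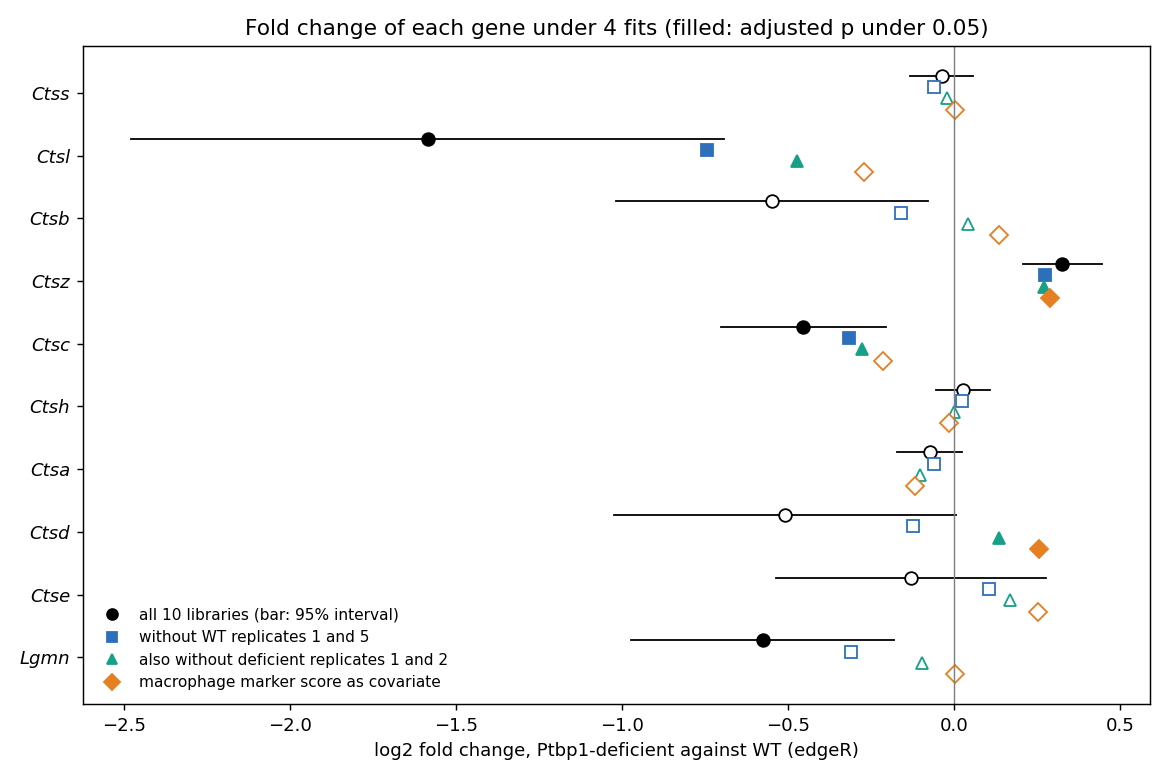
Log2 fold change of each gene, Ptbp1-deficient against WT, under 4 edgeR fits, with the 95% interval for all 10 libraries and filled symbols for an adjusted p under 0.05. Ctsz stayed between 0.27 and 0.33, whereas Ctsl, Ctsb, Ctsd and Lgmn moved toward or past 0 when WT replicates 1 and 5 were left out or the macrophage score was added.

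Ctsb, Ctsd, Lgmn and Ctsl shared with the macrophage marker sum the libraries in which they were highest (WT replicates 5 and 1) and lowest (deficient replicates 1 and 2). Between those extremes they differed: the markers were lower in deficient replicates 3 to 5 than in WT replicates 2 to 4 (1021 to 1196 against 1415 to 1479 CPM), as was Ctsl, whereas Ctsd was higher there (118 to 129 against 108 to 114 CPM) and Ctsb and Lgmn overlapped. WT replicate 5 exceeded the mean of WT replicates 2 to 4 by 2.03-fold for Ctsb, 2.03-fold for Ctsd, 1.64-fold for Lgmn and 4.08-fold for Ctsl. That ratio was 1.83 for Ctse and 1.53 for Ctsc, and for Ctss, Ctsz, Ctsh and Ctsa it was 0.988, 0.958, 0.974 and 1.05. Within the deficient group, the mean of replicates 3 to 5 exceeded that of replicates 1 and 2 by 1.48-fold for Ctsb, 1.69-fold for Ctsd, 1.53-fold for Lgmn and 1.77-fold for Ctsl. The other members had ratios from 0.931 (Ctsa) to 1.122 (Ctse), with 0.994 for Ctsz. In the fit with a macrophage score no member was called lower (18.8% of all genes were), and 2, Ctsz and Ctsd, were called higher (18.1% of all genes). With WT replicates 1 and 5 and deficient replicates 1 and 2 left out, Ctsz and Ctsd were also the 2 called higher (23.1% of all genes). The score itself separated the genotypes, so this fit can also remove part of a genotype difference. Monocyte markers were also highest in WT replicates 5 and 1 (1124 and 812.5 CPM in sum, against 405 to 541 CPM in the other 8 libraries). Marker sums of B cells (913 and 498 against 314 to 377 CPM) and plasmacytoid dendritic cells (731 and 432 against 285 to 344 CPM) were also highest in WT replicates 5 and 1. Neutrophil markers stood out in WT replicate 5 alone (695 against 45.5 to 149 CPM). The part of these cells in the result was not tested.

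**Figure D4:**
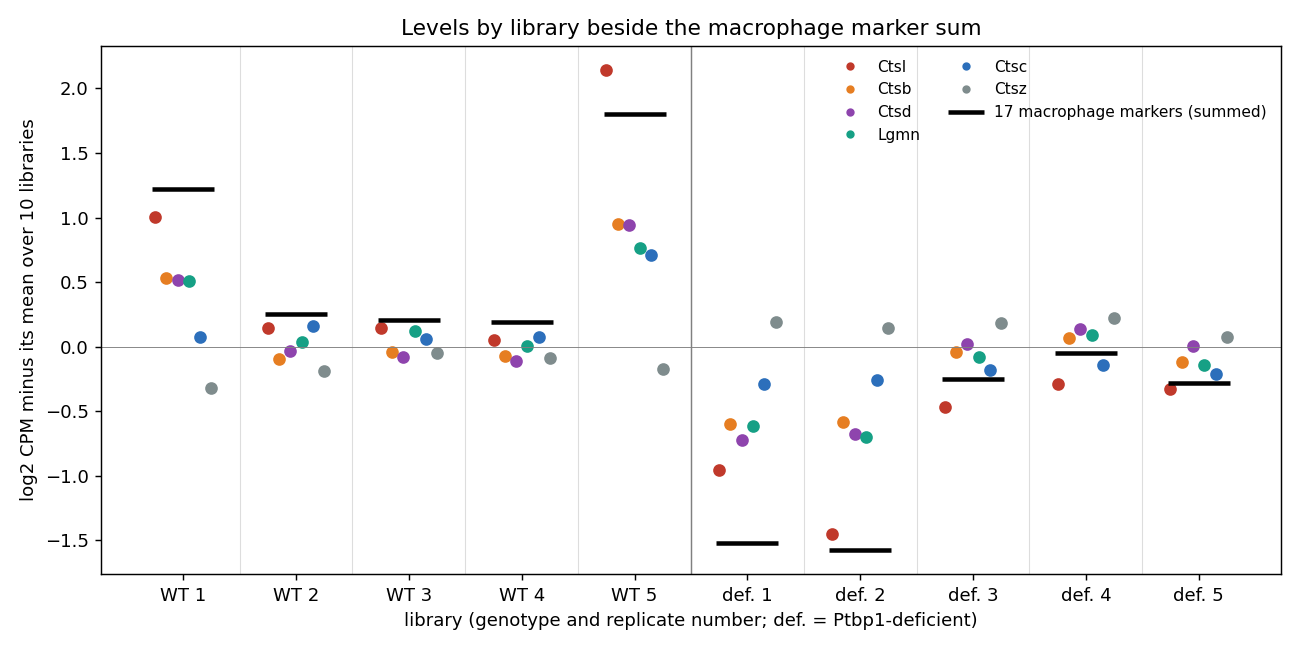
Log2 CPM of 6 members (points) and of the summed 17 macrophage markers (bars) in each library, each minus its mean over 10 libraries; replicate numbers carry no order. Ctsl, Ctsb, Ctsd and Lgmn were highest in WT replicates 5 and 1 and lowest in deficient replicates 1 and 2, as was the marker sum, and Ctsz was not.

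The genes whose profile was most like that of Ctsl, the only changed member beyond 1.5-fold, were Ephx1, Blnk and Maf. Likeness was the root mean square difference of log2 CPM, each gene centred on its own mean over 10 libraries, and it was 0.20, 0.21 and 0.22 among 9777 genes compared. Ephx1, an epoxide hydrolase gene, lay at 3.19 to 7.88 CPM in the deficient and 11 to 34.6 CPM in the WT libraries. Maf, a transcription factor gene known from macrophages, lay at 6.48 to 18.6 and 17 to 61.8 CPM, and Blnk, an adaptor of B cell receptor signalling, at 1.91 to 5.15 and 6.26 to 27.3 CPM. In each of these 3 genes WT replicate 5 was the highest library.

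Other cathepsin genes were mixed in direction, where 21.9% of all genes tested rose and 23.1% fell. Of 5 listed, 4 were tested: Ctsf and Ctsk fell, Ctsw rose and Ctso was at 62.6 ± 3.67 against 60.4 ± 1.26 CPM (adjusted p = 0.38). Ctsf fell from 2.74 ± 1.68 to 0.354 ± 0.257 CPM (adjusted p = 0.0015, log2 fold change -2.92). These levels are low, with 0.0469 to 0.634 CPM in the deficient libraries. WT replicates 5 and 1 (5.45 and 3.2 CPM) stood above WT replicates 2 to 4 (1.22 to 2.0 CPM). Ctsk, the osteoclast cathepsin, fell from 1.19 ± 0.423 to 0.713 ± 0.0738 CPM (adjusted p = 0.024) and did not pass without WT replicate 1 (adjusted p = 0.060) or without deficient replicate 3, 4 or 5 (adjusted p = 0.052, 0.053 and 0.051). Ctsw, known from cytotoxic lymphocytes, was at 7.53 ± 1.79 against 3.33 ± 2.81 CPM (2.26-fold, adjusted p = 0.046). Of the 10 fits that leave out 1 library in turn it passed only in that without WT replicate 5 (adjusted p = 3.4e-04), and the other 9 gave adjusted p-values of 0.054 to 0.11. NK cell markers were summed to 173 to 239.6 CPM in the deficient and 117 to 140 CPM in the WT libraries, and their part in the Ctsw result was not tested.

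Genes of 2 inhibitors of cysteine cathepsins rose. Of 12 listed cystatin and stefin genes 3 were in the count table. Cst3 and Cstb rose and Cst7 did not pass (1.38-fold, adjusted p = 0.057 with edgeR), where 21.9% of all genes tested rose. Cst3, which encodes the secreted inhibitor cystatin C and is a marker of conventional dendritic cells, rose from 2034 ± 253 to 3908 ± 703 CPM (1.92-fold, adjusted p = 1.1e-04). Its deficient libraries lay between 3064 and 4836 CPM and its WT libraries between 1617 and 2294 CPM, with no overlap. Cstb, which encodes the cytosolic inhibitor stefin B, rose 1.61-fold (adjusted p = 9.3e-05), from 21.2 ± 1.29 to 34.2 ± 4.81 CPM. The higher cDC1 and lower cDC2 marker sums given above moved with genotype beside Cst3 and Cstb, and their part in these results was not tested.

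Across 8 lists of genes around the cathepsins, 55 of 91 tested genes changed (60.4%), 34 upward and 21 downward, and 45.0% of all genes tested changed. The lists were the other cathepsins and cystatins above and 6 more. Of 27 soluble lysosomal hydrolases and their partners 15 rose and 5 fell (median log2 fold change 0.24). Ppt1, which encodes a palmitoyl thioesterase, rose 2.02-fold, from 814.5 ± 108 to 1644 ± 256 CPM (adjusted p = 4.0e-05). Psap, which encodes the precursor of the saposins, rose from 4961 ± 318 to 8628 ± 1366 CPM (1.74-fold, adjusted p = 8.7e-05). Galns, a sulfatase gene, rose from 16.1 ± 1.80 to 23.1 ± 0.955 CPM (adjusted p = 1.8e-04). Among those that fell were Neu1, Pla2g15, Smpd1 and Tpp1. Tpp1, another lysosomal peptidase gene, fell from 75.8 ± 10.3 to 58.8 ± 1.56 CPM (adjusted p = 0.0024, but 0.10 with the macrophage score added). The cDC1 and cDC2 marker sums moved with genotype here too, and their part was not tested.

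Among genes that sort enzymes to the lysosome, 2 receptor genes moved in opposite directions. Igf2r, which encodes the cation-independent mannose 6-phosphate receptor, rose 2.22-fold, from 22.5 ± 4.56 to 50.03 ± 6.45 CPM (adjusted p = 3.0e-05). Sort1, which encodes sortilin, an alternative sorting receptor, fell from 186 ± 9.37 to 95.3 ± 10.9 CPM (adjusted p = 1.8e-06, log2 fold change -0.96). The 5 libraries of each genotype did not overlap for either gene, at 44.2 to 60.03 against 17.98 to 29.7 CPM for Igf2r and 85.2 to 107 against 175 to 200.3 CPM for Sort1. Gnptab, which makes the mannose 6-phosphate tag, rose from 85.5 ± 6.79 to 109 ± 7.52 CPM (adjusted p = 9.1e-04) but did not pass in the FPKM values (adjusted p = 0.20). Over that list of 12 genes 4 rose and 4 fell (median log2 fold change 0.02), beside 21.9% and 23.1% of all genes tested. Gga3, an adaptor that carries cargo from the Golgi, was among those that fell (107 ± 4.24 to 89.7 ± 4.44 CPM, adjusted p = 8.3e-04).

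Genes of acidification and of the lysosomal membrane were mixed in direction, where 21.9% of all genes tested rose and 23.1% fell. Of 16 vacuolar ATPase genes 7 rose and 4 fell (median log2 fold change 0.20). Atp6v0a2, a subunit of the membrane sector, rose from 161 ± 6.09 to 231 ± 4.88 CPM (adjusted p = 1.2e-06), and Atp6v0b of the same sector fell from 170.0 ± 4.62 to 143 ± 5.36 CPM (adjusted p = 2.7e-04). Of 13 lysosomal membrane genes 2 rose and 3 fell. Laptm5 rose from 1370 ± 50.4 to 1680 ± 30.1 CPM (adjusted p = 2.1e-04, but 0.056 in the FPKM values), and Cd63 fell from 42.1 ± 4.84 to 27.5 ± 5.72 CPM (adjusted p = 0.0022, but 0.066 with the macrophage score added). Among 4 transcription factors of the MiT/TFE family, which drive lysosomal genes, Tfe3 fell from 87.1 ± 3.27 to 76.9 ± 3.50 CPM (adjusted p = 0.0049), and Tfeb was at 158 ± 9.36 against 151 ± 6.91 CPM (adjusted p = 0.28).

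Genes of class II loading and invariant chain breakdown, where these proteases act, were split. Of 12 members 3 rose and 2 fell (median log2 fold change 0.08), beside 21.9% and 23.1% of all genes tested. Sppl2a, the intramembrane protease that removes the last invariant chain stub, rose from 142 ± 4.08 to 176 ± 7.90 CPM (adjusted p = 9.9e-05). H2-Aa, a class II chain gene, rose from 5814 ± 576 to 7049 ± 371 CPM (adjusted p = 0.011, but 0.077 with the macrophage score added), and H2-DMb2 fell from 540.2 ± 51.1 to 458 ± 33.9 CPM (adjusted p = 0.018). The third that rose was H2-DMb1 (adjusted p = 0.042), which passed in only 6 of 24 alternative fits (adjusted p = 0.0076 to 0.17) and not, among others, without WT replicate 1, 3, 4 or 5 or deficient replicate 1, 2, 3 or 4. Cd74, the invariant chain gene, was at 13830 ± 835 against 13470 ± 1369 CPM (adjusted p = 0.74). Ifi30, which encodes the lysosomal thiol reductase GILT, fell in the counts (15.2 ± 13.5 to 4.57 ± 0.941 CPM, adjusted p = 0.012; log2 fold change -1.73, and -1.06 without WT replicate 3), but its log2 difference in the FPKM values was -0.08 (adjusted p = 0.20, limma).

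**Figure D5:**
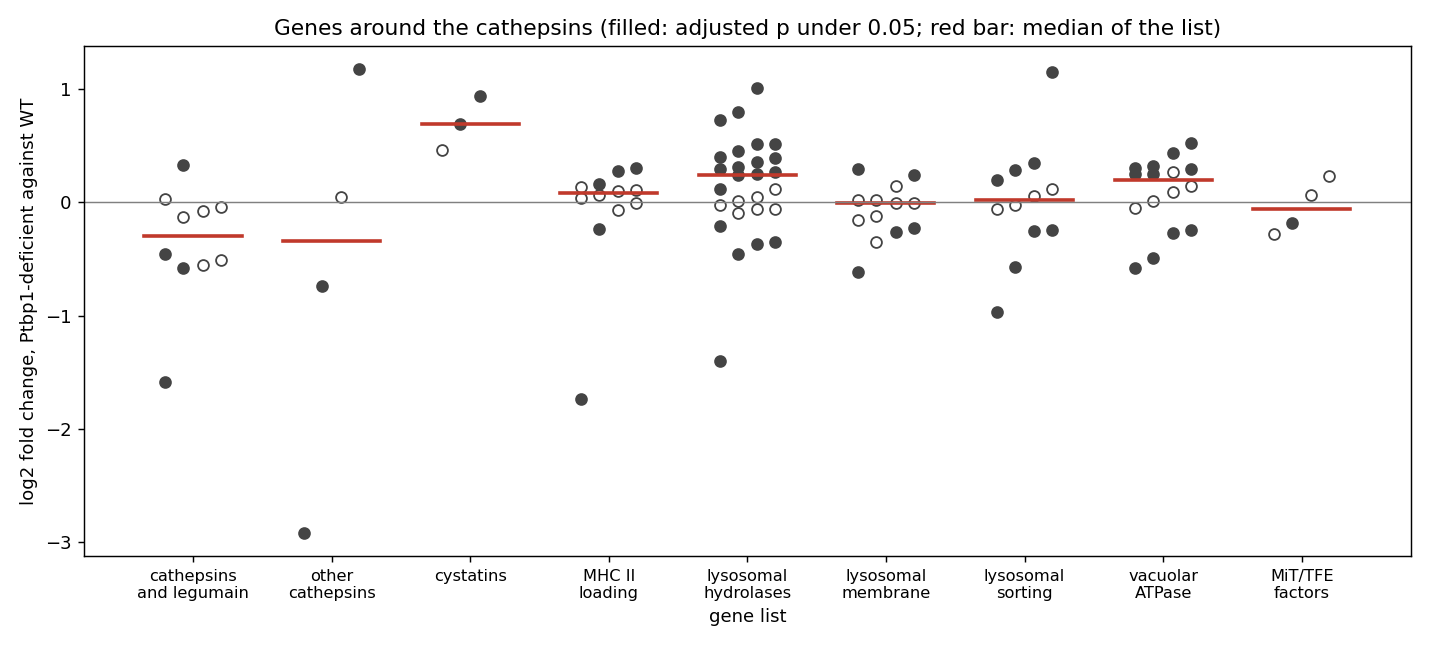
Log2 fold change of the 10 members and of each tested gene of 8 lists around them, with filled points for an adjusted p under 0.05 and a red bar for the median of each list. The medians ran from -0.34 for the other cathepsins to 0.69 for the cystatins, and the members stood at -0.29.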

How the data were processed

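Poly(A) RNA of 10 dendritic cell libraries was sequenced by the submitters as paired reads. Values in the deposited count table are raw gene counts; summary entries that name no gene were left out, and genes held 69.4% to 74.1% of each library's total. It lists only genes with at least 2 counts in every library. The deposited FPKM table lists 11968 genes, with a minimum of 1.00. HISAT2, StringTie and DESeq2 are named, with the build GRCh38, per the submitters' processing notes, whereas the identifiers are mouse genes; the summary entries of the count table carry the names that htseq-count writes, and no source used here gives a strand setting. Symbols and coordinates came from GENCODE M21 (GRCm38), which matched 19049 identifiers; start-region sequences came from RefSeq (GRCm38.p6).

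Genes were filtered with filterByExpr (930 removed), scaled by TMM and tested with edgeR 4.0.16 (limma 3.58.1, R 4.3.3), with genotype as the only term. Intervals are 95% intervals of the fold change. Log2 CPM used a prior count of 2. On counts simulated for this comparison's 18248 genes, edgeR recovered 13 of 50 genes at the smallest fold simulated, which was about that of Ctsz, 30 of 50 at 1.5, 44 of 50 at 2 and 48 of 50 at 4, and made 7 false calls. Only those sets of 50 genes were changed in the simulation, whereas 45.0% of all genes tested passed in the data. The adjustment is stricter where fewer genes change, so these recovered shares do not carry over to the data.

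The members, the lists, the markers and most alternatives were chosen with earlier results of these data known. Named genes are all members, per list at most 4 changed genes, taken by smallest adjusted p, the 3 genes most like each member changed beyond 1.5-fold, and Ptbp1; Neu1, Glb1, Tpp1, Ctso, Cst7, Cd74, Tfeb, Marco and genes named to complete a count of 5 or fewer were chosen after their values were seen; some genes of the lists are not reported here. Alternatives were RLE and upper-quartile scaling, DESeq2 1.42.0, limma-voom with quality weights, other filters, the replicate number as a block, limma on FPKM with pseudocounts of 1 and 0.1, an adjusted p under 0.01, a macrophage marker score as a covariate and leaving out libraries.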

Additional observations from a re-analysis of the deposited data

Results flagged for a closer look

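Among 37 named genes, screened in both groups for a single library far from the other 4, WT replicate 5 stood apart in 2 of 74 groups, both from the 10 protease genes; by chance about 1 in 20 groups would be so. Ctsc reached 383 CPM there against 244 to 262 CPM in the other WT libraries. Ctsl reached 52.0 CPM there against 12.2 to 23.6 CPM. Ctsc and Ctsl passed the test also without that library (adjusted p = 1.1e-04 and 0.0052 with edgeR).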

How the results depend on the processing

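Over 25 alternatives Ctsz kept its direction and its call in all, Ctsc in 24, Ctsl in 23 and Lgmn in 17. Members called lower numbered 5 with upper-quartile scaling, 6 in each of the 3 fits of FPKM values, 1 without Ptbp1-deficient replicates 1 and 2, and 0 with a macrophage score added. The shares of all genes called lower in these fits are given above. Leaving out 1 library gave 2 to 4, and the share of all genes in those fits is not given here. Members called higher numbered 2 with the macrophage score, and 2 with WT replicates 1 and 5 and Ptbp1-deficient replicates 1 and 2 left out together, an alternative chosen after seeing the data. The median over the 10 genes of the log2 fold change of each member was -0.0101 in that fit of 3 against 3 libraries and 0.0026 with the macrophage score. Signs turned with the macrophage score for Ctsb (0.13), Ctsd (0.26), Ctse (0.25), Ctsh (-0.015), Ctss (0.0022) and Lgmn (0.0030), and in the fit of 3 against 3 libraries for Ctsb (0.040), Ctsd (0.13) and Ctse (0.17). Ctse also turned with limma-voom (0.074) and without WT replicate 5, leaving out 1 library in turn giving -0.24 to 0.088, and without WT replicates 1 and 5 (0.10). Ctsh turned with upper-quartile scaling (-0.019), in the 3 FPKM fits (-0.079) and without Ptbp1-deficient replicates 1 and 2 (-0.0016). The cause was not tested. Of 400 counts of list members under the alternatives, 344 stayed within 1.5 times their value. With the replicate number as a block, 1 member was higher and 3 lower, as without it. Same-numbered libraries correlated at -0.096 to 0.11 in their deviations from the group means. The labels state no pairing, and low correlations of this kind cannot exclude it. Depth limits Ctse and Ctsl most, with as few as 342 and 275 counts in a library.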

Other observations

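Among 9777 genes compared by their centred log2 CPM over 10 libraries, the gene nearest to Ctsb was Ctsd (root mean square difference 0.075), followed by Tnfaip2 (0.093) and Lgmn (0.10). This was noticed after the values were seen. The 10 libraries share genotype, depth and the library differences described above, so the likeness is a description of these libraries.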
